A study of Mus musculus with 36 samples.

Results

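The 10 genes described here encode receptors for microbial products and inflammatory cytokines, an adaptor shared by several of these receptors, and parts of the NF-kB system: Tlr2, Tlr4, Myd88, Il1r1, Tnfrsf1a, Tnfrsf1b, Ifngr1, Ifngr2, Nfkb1 and Nfkbia. They were chosen by name, matched through their Ensembl identifiers, and all 10 were found among the 38887 genes of the deposited count table. As background, toll-like receptors bind microbial products and, like the interleukin-1 receptor, pass their signal through the adaptor MyD88 to the kinases that free NF-kB. Tumor necrosis factor receptors reach the same kinases by other adaptors, whereas the interferon gamma receptor works through JAK kinases. The inhibitor encoded by Nfkbia holds NF-kB dimers in the cytoplasm, and its gene is itself switched on by NF-kB, which closes a negative feedback loop. Blood stem and progenitor cells carry several of these receptors and are known to divide and to make more myeloid cells during infection and inflammation.

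Stem and progenitor cells were sorted from mouse bone marrow and sequenced in bulk, with 5000 cells named as the input. Both populations came from the Lin-Sca-1+c-Kit+ pool. The long-term hematopoietic stem cells (LT-HSC) were its CD150+CD48- cells, while HPC-1, which the labels call ST-HSC, were its CD150-CD48+ cells. Every animal lacked Apoe, so no library had intact Apoe, and the genotypes were Apoe-/- with intact Il27ra (labelled WT), Apoe-/-Il27ra+/- and Apoe-/-Il27ra-/-, where Il27ra encodes the interleukin-27 receptor. The animals had received angiotensin II (Ang II) or the vehicle PBS for 2 weeks, and the labels give neither age nor sex nor whether libraries of different cell types came from the same animals. PBS LT-HSC libraries numbered 1 for Apoe-/-, 3 for Apoe-/-Il27ra+/- and 3 for Apoe-/-Il27ra-/-, and Ang II LT-HSC libraries numbered 2, 4 and 4 in that order of genotypes. For HPC-1 the numbers were 2, 3 and 3 with PBS and 3, 4 and 4 with Ang II, which makes 36 libraries in 12 groups.

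Library totals ran from 1980283 to 6861078 counts with a median of 3139364. The LT-HSC median was 2560838 and the HPC-1 median 3254832. Levels are given as CPM, counts scaled to a common library total with TMM factors, which take most genes as equal between libraries. A floor of 3 counts corresponded to 0.4 to 1.49 CPM, depending on the library, and covers counting error only. Among the 10 genes, 1 value lay at or under that floor, Tlr4 with 0 counts in replicate 3 of HPC-1 Ang II Apoe-/-. All 10 genes passed the expression filter in every model.

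Of the gate genes, Slamf1 and Cd48 separated the cell types in all libraries but 1, while the levels of Kit and Ly6a overlapped. Slamf1, which encodes CD150, was 3.97 higher in LT-HSC on the log2 scale (SE 0.36, adjusted p = 1.33e-09), and Cd48 differed by -5.92 (SE 0.60, adjusted p = 3.3e-08). Kit was 0.30 higher (SE 0.10, adjusted p = 0.011) and Ly6a, which encodes Sca-1, was 1.33 higher (SE 0.25, adjusted p = 4.4e-05). The exception was replicate 2 of LT-HSC PBS Apoe-/-Il27ra-/-, with 2.36 CPM of Slamf1 and 62.6 CPM of Cd48. Its 10 LT-HSC markers summed to 666 CPM against 1470 or more in the other LT-HSC libraries, within the 510 to 797 CPM of HPC-1, and its 10 markers of HPC-1 and multipotent progenitors summed to 4909 CPM. That library therefore went against its label.

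Markers of other cells set further libraries apart. In replicate 2 of LT-HSC Ang II Apoe-/-Il27ra-/-, 12 of 13 mature myeloid markers were detected and summed to 8903 CPM, where the LT-HSC median was 141 CPM, with C1qa at 0. The same library had the highest erythroid sum of LT-HSC, 994 CPM with 6 of 6 markers detected, its HPC-1 markers summed to 4364 CPM, and its LT-HSC markers to 1470 CPM. Replicate 3 of LT-HSC PBS Apoe-/-Il27ra-/- came next with 1567 CPM of mature myeloid and 889 CPM of erythroid markers. Of 14 intestinal epithelial markers, 12 were detected in LT-HSC of PBS Apoe-/- mice, and 13 and 12 in the libraries of Ang II Apoe-/- mice, with sums of 259, 369 and 339 CPM, where the other LT-HSC libraries had 34.8 to 127 CPM. Cdx1 and Cdx2 were at 0 in the PBS library, Cdx2 in replicate 1 and Tff3 and Cdx1 in replicate 2 with Ang II. In HPC-1, the 5 libraries of Apoe-/- mice had 11 or 12 of the 14 detected and the others 2 to 9. Of those 5, replicate 3 with Ang II had 12, with Cdx1 and Cdx2 at 0, and a sum of 255 CPM, and the other four had 75.0 to 91.3 CPM, where the remaining HPC-1 libraries had 27.5 to 77.6 CPM.

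For the remaining lists, median sums in LT-HSC and HPC-1 were 11.8 and 13.9 CPM for 6 B cell markers, 1.46 and 1.74 CPM for 5 T cell markers, 453 and 88.6 CPM for 5 megakaryocyte markers, and 61.5 and 10.5 CPM for 8 endothelial and stromal markers. The most abundant gene of each list was Meis1 for LT-HSC, Mki67 for HPC-1 and multipotent progenitors, Lyz2 for mature myeloid cells, Cd79b for B cells, Cd4 for T cells, Hba-a1 for erythroid cells, Itga2b for megakaryocytes, Krt18 for intestinal epithelium and Kdr for endothelium and stroma. Il27ra itself had 6.94 to 19.3 CPM in the 7 LT-HSC libraries of Apoe-/-Il27ra-/- mice, 24.1 to 42.7 CPM in the 7 of Apoe-/-Il27ra+/- mice, and 17.1, 42.9 and 51.8 CPM in the 3 of Apoe-/- mice. In HPC-1 the genotypes overlapped, with 4.64 to 11.1 CPM in the knockout, 5.46 to 16.5 CPM in the heterozygous and 6.07 to 11.9 CPM in the Apoe-/- libraries. Reads of the targeted gene were thus still counted in the knockout, at levels that reached the PBS Apoe-/- library of LT-HSC and most Apoe-/- libraries of HPC-1.

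LT-HSC and HPC-1 differed in 7 of the 10 genes. Taken as the mean difference over the 5 combinations of agent and genotype that had at least 2 libraries of each cell type, 3 genes were higher in LT-HSC (Nfkbia, Tlr4 and Myd88), beside 17.9% of the 18013 genes tested. The 4 genes lower in LT-HSC were Il1r1, Ifngr2, Ifngr1 and Tnfrsf1a, beside 18.4% of all genes. A gene is called here at an adjusted p under 0.05 from edgeR, with the adjustment over all genes. The median log2 difference of the 10 genes was -0.16, and that of all genes was 0.03. The 7 called genes thus split into those higher and those lower in LT-HSC, while Tlr2, Tnfrsf1b and Nfkb1 were not called. Differences between these cell types were common among genes in general. For none of the 10 were the CPM ranges of the cell types fully apart over all 36 libraries, which held for 0.0944% of genes. In bulk libraries, fewer cells that carry a transcript and less of it per cell cannot be told apart, and the p-values measure the spread between libraries.

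**Figure D1:**
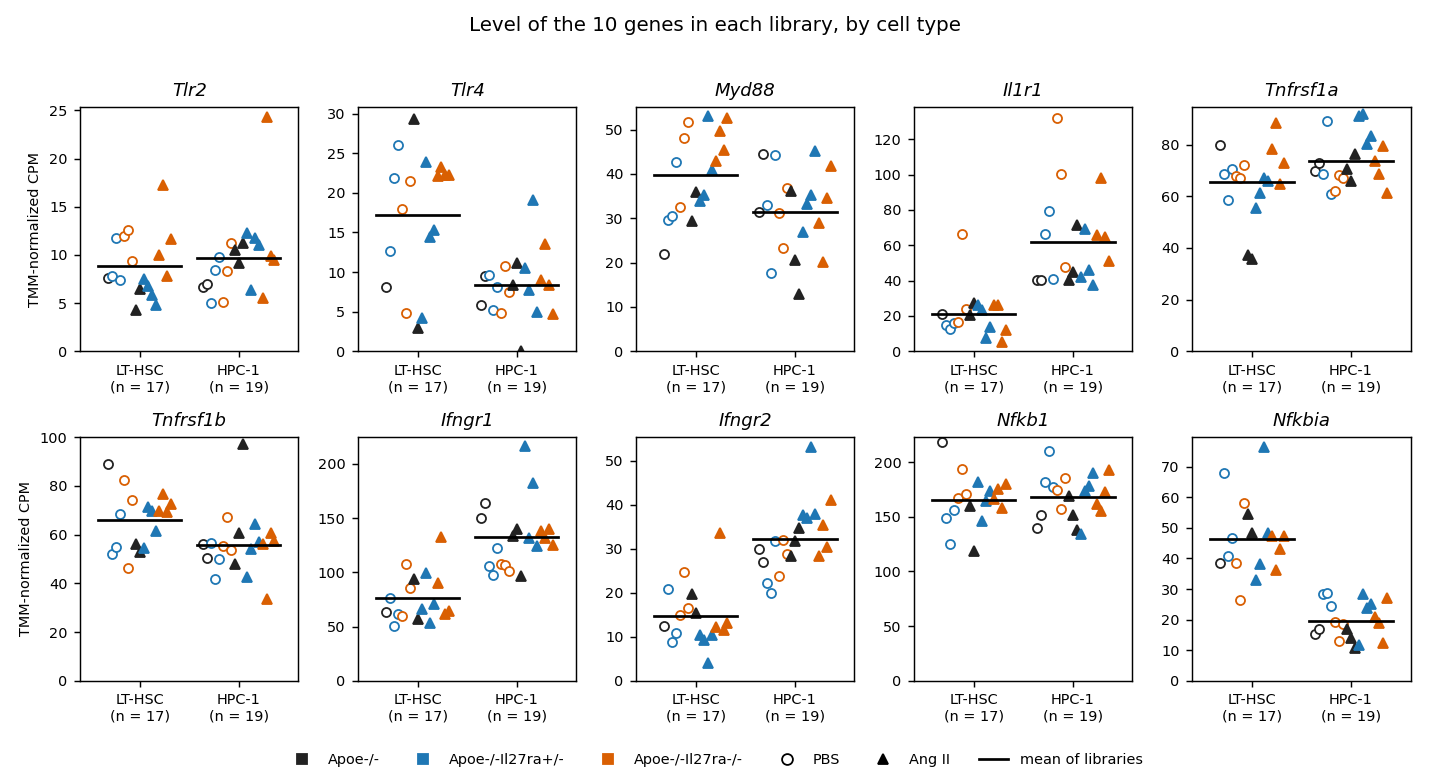
CPM of the 10 genes in each of the 17 LT-HSC and 19 HPC-1 libraries, with linear axes from 0, colors for genotype, open circles for PBS and filled triangles for Ang II; black lines are means over the libraries of a cell type. Il1r1, Ifngr1 and Ifngr2 lay mostly lower and Nfkbia mostly higher in LT-HSC, while Tlr2 and Nfkb1 overlapped almost wholly.

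Nfkbia (ENSMUSG00000021025, chromosome 12, bases 55489410 to 55492647, minus strand) encodes the NF-kB inhibitor IkB alpha and was the clearest of the genes higher in LT-HSC. Its level ran from 26.4 through a median of 46.7 to 76.6 CPM in LT-HSC, and from 10.8 through 18.8 to 28.6 CPM in HPC-1. Of the 17 LT-HSC libraries, 16 lay above every HPC-1 library, and the exception was the PBS Apoe-/-Il27ra-/- library with few LT-HSC marker reads. The difference was 2.41-fold, or 1.27 on the log2 scale (SE 0.14, adjusted p = 2.45e-09), and LT-HSC had the higher mean in 6 of 6 combinations of agent and genotype.

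Nfkb1 (ENSMUSG00000028163, chromosome 3, bases 135584655 to 135691547, minus strand) encodes the p105 precursor that is processed to the p50 subunit of NF-kB. Its level was close in the cell types, from 119 through a median of 166 to 218 CPM in LT-HSC and from 134 through 173 to 210 CPM in HPC-1. Every HPC-1 library lay within the LT-HSC range. The log2 difference was -0.11 with a 95% confidence interval of -0.25 to 0.03 (adjusted p = 0.262), so the inhibitor gene differed while a difference in the subunit gene was not detected.

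Both chains of the interferon gamma receptor were lower in LT-HSC. Ifngr1 (ENSMUSG00000020009, chromosome 10, bases 19591949 to 19610229, plus strand), the ligand-binding chain, ran from 50.4 through a median of 66.0 to 133 CPM in LT-HSC and from 97.1 through 132 to 217 CPM in HPC-1. The highest LT-HSC value came from the Ang II Apoe-/-Il27ra-/- library with 8903 CPM of mature myeloid markers, and 14 of 17 LT-HSC libraries lay below every HPC-1 library. The log2 difference was -0.73 (SE 0.11, adjusted p = 1.54e-06).

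Ifngr2 (ENSMUSG00000022965, chromosome 16, bases 91547072 to 91565623, plus strand), the signalling chain, ran from 3.99 through a median of 12.4 to 33.7 CPM in LT-HSC and from 19.8 through 31.7 to 53.0 CPM in HPC-1. As with Ifngr1, 14 of 17 LT-HSC libraries lay below all HPC-1 libraries, and the same myeloid-marked library was the highest of LT-HSC. The log2 difference was -1.11 (SE 0.16, adjusted p = 5.6e-07). HPC-1 had the higher mean of both chains in every combination of agent and genotype. Without the PBS Apoe-/- LT-HSC library and the replicates 2 of PBS and Ang II Apoe-/-Il27ra-/- LT-HSC, the differences were -0.82 for Ifngr1 and -1.26 for Ifngr2.

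Il1r1 (ENSMUSG00000026072, chromosome 1, bases 40225080 to 40317257, plus strand), the signalling receptor for interleukin-1, showed the largest difference of the 10 genes. It ran from 5.11 through a median of 20.7 to 66.3 CPM in LT-HSC and from 37.6 through 51.1 to 132 CPM in HPC-1. Of the 17 LT-HSC libraries, 16 lay below every HPC-1 library. The 66.3 CPM came from the PBS Apoe-/-Il27ra-/- library whose markers were those of HPC-1. The log2 difference was -1.62 (SE 0.23, adjusted p = 2.51e-06), or -1.84 without that library, the myeloid-marked library and the PBS Apoe-/- LT-HSC library.

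Of the receptors for tumor necrosis factor, Tnfrsf1a was called between the cell types and Tnfrsf1b was not. Tnfrsf1a (ENSMUSG00000030341, chromosome 6, bases 125349362 to 125362484, plus strand) encodes TNFR1, which carries a death domain. It ran from 35.8 through a median of 66.9 to 88.5 CPM in LT-HSC and from 60.8 through 70.3 to 91.7 CPM in HPC-1. The ranges overlapped broadly, and LT-HSC had the lower mean in 3 of 6 combinations of agent and genotype. The log2 difference was -0.28 (SE 0.08, adjusted p = 0.00351), and it was -0.11 (adjusted p = 0.325) as the mean of 4 combinations without Ang II Apoe-/-. With no filter on low counts the adjusted p was 0.0677, and over all 47 alternatives the adjusted p ran from 0.00186 to 0.325.

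Tnfrsf1b (ENSMUSG00000028599, chromosome 4, bases 145213463 to 145246870, minus strand) encodes TNFR2, which lacks a death domain. It ran from 46.2 through a median of 69.1 to 88.9 CPM in LT-HSC and from 33.4 through 56.2 to 97.1 CPM in HPC-1. All LT-HSC libraries lay within the HPC-1 range, but 1 library alone set its top. It was replicate 3 of HPC-1 Ang II Apoe-/-, with 255 CPM of intestinal epithelial markers. The next highest HPC-1 library had 67.1 CPM of Tnfrsf1b, below the LT-HSC median. The log2 difference of Tnfrsf1b, 0.17, had a 95% confidence interval of -0.04 to 0.37 (adjusted p = 0.236). It passed the threshold as the mean of 6 combinations (0.26, adjusted p = 0.0476) and of 4 without Ang II Apoe-/- (0.29, adjusted p = 0.04), and the adjusted p ran up to 0.541 among 47 alternatives.

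Of the toll-like receptors, Tlr4 (ENSMUSG00000039005, chromosome 4, bases 66827584 to 66930284, plus strand), the receptor for lipopolysaccharide, ran from 2.99 through a median of 21.5 to 29.4 CPM in LT-HSC and from 0 through 8.38 to 19.1 CPM in HPC-1. Of 17 LT-HSC libraries, 9 lay above all HPC-1 libraries, and LT-HSC had the higher mean in 6 of 6 combinations. The replicates of LT-HSC Ang II Apoe-/- held both the highest value, 29.4 CPM in replicate 1, and the lowest, 2.99 CPM in replicate 2. The difference was 2.13-fold, or 1.09 on the log2 scale (SE 0.31, adjusted p = 0.00467). Without that replicate 1 it was 0.61 (adjusted p = 0.169, the highest of 47 alternatives, with 1.85e-05 the lowest), and among libraries under 4000000 counts it was 1.01 (adjusted p = 0.0835).

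Tlr2 (ENSMUSG00000027995, chromosome 3, bases 83836272 to 83841767, minus strand), a receptor for bacterial lipoproteins, ran from 4.33 through a median of 7.77 to 17.3 CPM in LT-HSC and from 4.96 through 9.43 to 24.4 CPM in HPC-1. The ranges overlapped nearly completely. Replicate 2 of Ang II Apoe-/-Il27ra-/- was the highest library in each cell type. The log2 difference of -0.22 had a 95% confidence interval of -0.65 to 0.21 (adjusted p = 0.504).

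Myd88 (ENSMUSG00000032508, chromosome 9, bases 119335934 to 119341411, minus strand), the adaptor of most toll-like receptors and of the interleukin-1 receptor, ran from 21.9 through a median of 40.8 to 53.1 CPM in LT-HSC and from 13.0 through 33.1 to 45.1 CPM in HPC-1. The groups overlapped, with 6 of 17 LT-HSC libraries above all HPC-1 libraries and the higher LT-HSC mean in 5 of 6 combinations. The difference was 1.31-fold, or 0.39 on the log2 scale (SE 0.14, adjusted p = 0.0243). The adjusted p rose to 0.0508 without replicate 3 of LT-HSC PBS Apoe-/-Il27ra+/- (0.35), to 0.051 without replicate 2 of HPC-1 PBS Apoe-/-Il27ra+/- (0.33), and to 0.0597 without replicate 2 of LT-HSC Ang II Apoe-/- (0.36). Over 6 combinations the difference was 0.19 (adjusted p = 0.345), with a Y-linked covariate 0.29 (0.0686), and among libraries under 4000000 counts 0.36 (0.159), where the lowest adjusted p of 47 alternatives was 0.00413. Myd88 is the only one of the 10 whose gene overlaps others in the annotation, Acaa1a on the opposite strand and Slc22a14 on its own strand. Over all libraries Acaa1a had 3540 counts and Slc22a14 had 2, beside 5023 for Myd88, and the part of overlapping reads in the Myd88 difference was not tested.

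Per kilobase of the principal transcript, the LT-HSC order of mean levels was Nfkb1 at 40.1 CPM per kilobase, Ifngr1 36.1, Tnfrsf1a 30.3, Nfkbia 29.5, Myd88 20.3, Tnfrsf1b 17.3, Tlr4 4.23, Ifngr2 3.95, Il1r1 3.63 and Tlr2 2.94. The step from Tnfrsf1b to Tlr4 was the only one between neighbours that exceeded their SDs, and Tnfrsf1b lay above Tlr4 in 17 of 17 libraries. In HPC-1 the order on the same scale was Ifngr1 62.7, Nfkb1 40.8, Tnfrsf1a 34.2, Myd88 16.1, Tnfrsf1b 14.7, Nfkbia 12.5, Il1r1 10.7, Ifngr2 8.67, Tlr2 3.19 and Tlr4 2.05. There the steps from Ifngr1 to Nfkb1, from Tnfrsf1a to Myd88 and from Ifngr2 to Tlr2 exceeded the SDs, and the other neighbours did not differ beyond their spread. The same 4 genes, Tlr2, Tlr4, Ifngr2 and Il1r1, were thus the lowest in both cell types. With the union of all exons as the length, Nfkb1 ranked 6 in LT-HSC and 4 in HPC-1. Other places moved too, with Nfkbia at rank 1 in LT-HSC and Tnfrsf1b at rank 3 in HPC-1. The order thus depends on the transcript used, although the same 4 genes stayed lowest.

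Within single combinations of agent and genotype, the number of called genes varied. With PBS in Apoe-/-Il27ra+/-, 2 of the 10 were called, beside 7.67% of all genes: Il1r1 at -2.09 on the log2 scale (adjusted p = 0.0168) and Ifngr1 at -0.80 (adjusted p = 0.0455). With PBS in Apoe-/-Il27ra-/-, where 1 of 3 LT-HSC libraries carried HPC-1 markers, the only called gene was Nfkbia at 1.28 (adjusted p = 0.0422), beside 0.883% of genes. Without the PBS Apoe-/- LT-HSC library and the replicates 2 of PBS and Ang II Apoe-/-Il27ra-/- LT-HSC, 2 of the 10 were called there, Il1r1 and Nfkbia, beside 1508 of 14979 genes. No test was made for PBS Apoe-/-, which had 1 LT-HSC library.

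With Ang II in Apoe-/-, 2 were called, beside 10.4% of genes: Nfkbia at 1.87 (adjusted p = 0.000882) and Tnfrsf1a at -0.96 (adjusted p = 0.00233). With Ang II in Apoe-/-Il27ra+/-, 5 were called, beside 14.9%: Ifngr2 at -2.28 (adjusted p = 1.75e-05), Ifngr1 at -1.18, Il1r1 at -1.49, Tnfrsf1a at -0.47 and Nfkbia at 1.14. With Ang II in Apoe-/-Il27ra-/-, 3 were called, beside 12.5%: Il1r1 at -2.05, Ifngr2 at -0.97 and Nfkbia at 1.13. Whether the cell type difference itself varied among the 5 combinations was tested with edgeR, and 0 of the 10 genes were called, beside 0.0% of all genes. At an unadjusted p under 0.05, 915 of the 18013 genes passed that test, and DESeq2 was not run for it. Of the 10, Tnfrsf1a had the lowest unadjusted p (0.000954, adjusted p = 0.54), followed by Ifngr2 (0.00762, adjusted p = 0.83).

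**Figure D2:**
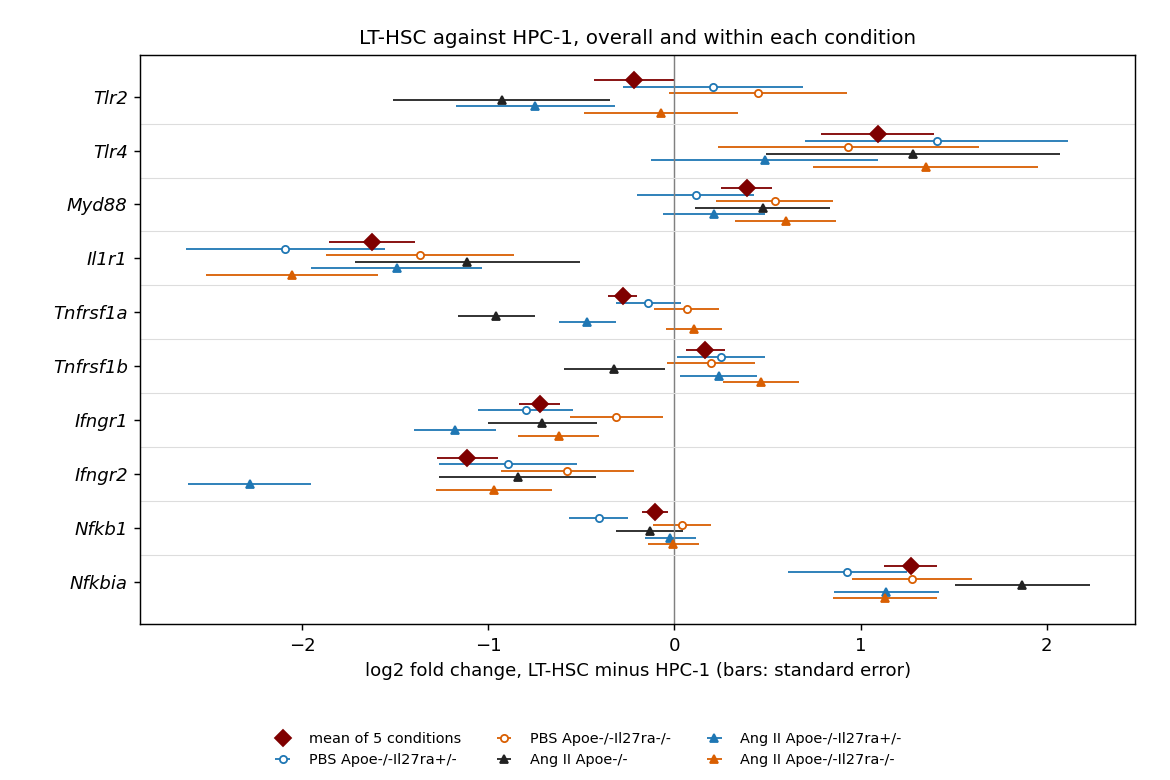
Log2 fold change of LT-HSC minus HPC-1 for the 10 genes, as the mean of 5 combinations of agent and genotype (diamonds) and within each (open circles for PBS, triangles for Ang II), with standard errors as bars. Nfkbia, Tlr4 and Myd88 lay above 0, and Il1r1, Ifngr1 and Ifngr2 below 0, in all 5.

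Ang II against PBS asks whether infusion moved these genes within a cell type and genotype, and no comparison called any of them. In LT-HSC, 0 of 10 were called by edgeR in Apoe-/-Il27ra+/-, beside 0.0% of 16365 genes, and 0 of 10 in Apoe-/-Il27ra-/-, beside 0.0%. In these LT-HSC comparisons 0 of the 10 had an unadjusted p under 0.05 and DESeq2 called 0, while over all genes 806 and 150 had such a p and DESeq2 called 0 and 1. The log2 differences ran from -0.66 to 0.25 in Apoe-/-Il27ra+/- and from -1.08 to 0.61 in Apoe-/-Il27ra-/-. The -1.08 was that of Il1r1, for which the PBS libraries had 16.3, 66.3 and 23.9 CPM, the highest in replicate 2 with HPC-1 markers, and those with Ang II had 5.11 to 26.3 CPM. In LT-HSC of Apoe-/- mice Ang II was not tested against the single PBS library.

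In HPC-1, 0 of 10 were called by edgeR in Apoe-/- (0.0% of 13199 genes), in Apoe-/-Il27ra+/- (0.0%) and in Apoe-/-Il27ra-/- (0.0%), and DESeq2 called 0 of the 10 in each. Over all genes, 420, 519 and 244 had an unadjusted p under 0.05 in that order, and DESeq2 called 1, 4 and 1. Of the 10, the unadjusted p fell under 0.05 for both interferon gamma receptor chains in Apoe-/-Il27ra+/- and for none in the other genotypes. Ifngr1 had 106, 97.2 and 123 CPM with PBS and 217, 132, 182 and 124 CPM with Ang II, so the groups nearly met at 123 and 124 CPM. Its log2 difference was 0.58 with a 95% confidence interval of 0.20 to 0.97 and an adjusted p of 1. Ifngr2 had 22.2, 19.8 and 31.7 CPM with PBS and 37.0 to 53.0 CPM with Ang II. Its log2 difference was 0.74 with an interval of 0.22 to 1.25 and an adjusted p of 1. Neither gene passed the test over all genes, and the share of all genes whose groups did not overlap here was not counted.

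Tests of whether the Ang II effect itself differed called 0 of the 10 with edgeR and with DESeq2. These tests compared Apoe-/-Il27ra-/- with Apoe-/-Il27ra+/- in LT-HSC (0.0% of genes), the same in HPC-1 (0.0%), and LT-HSC with HPC-1 (0.0%). All-gene counts at an unadjusted p under 0.05 were 414, 169 and 511, and DESeq2 called 0, 0 and 0 genes. Among the 10, only Ifngr2 had such a p, for LT-HSC minus HPC-1 (-0.89 on the log2 scale, SE 0.34, adjusted p = 1).

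Genotype comparisons ask whether loss of Il27ra moved these genes, and 1 of the 10 was called, Tnfrsf1a in LT-HSC with Ang II. The Apoe-/- libraries there had 37.1 and 35.8 CPM. The Apoe-/-Il27ra+/- libraries had 55.6, 61.4, 66.9 and 65.7 CPM, and those of Apoe-/-Il27ra-/- had 78.4, 88.5, 64.8 and 72.7 CPM. Both Apoe-/- libraries lay below all others, whereas the heterozygous and knockout libraries overlapped at 64.8 to 66.9 CPM. In Apoe-/-Il27ra-/- against Apoe-/- the level was 2.10-fold higher, or 1.07 on the log2 scale (SE 0.19, 95% confidence interval 0.67 to 1.48, adjusted p = 0.0082). That made 1 of 10 genes, beside 1.69% of 16365 genes, and the median log2 difference of all genes was 0.14. At an unadjusted p under 0.05 there were 3 of the 10, Tnfrsf1a, Tlr2 (1.12, adjusted p = 0.234) and Myd88 (0.56, adjusted p = 0.265), beside 2896 of all genes, and DESeq2 called 1, Tnfrsf1a, beside 790.

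In Apoe-/-Il27ra+/- against Apoe-/-, which used the same Apoe-/- libraries, the log2 difference of Tnfrsf1a was 0.79 (SE 0.19, adjusted p = 0.0563), so edgeR called 0 of the 10, beside 0.831% of genes. At an unadjusted p under 0.05 there were 2 of the 10, Tnfrsf1a and Ifngr2, beside 2563 of the 16365 genes, and DESeq2 called 1, Tnfrsf1a, beside 436 of all genes. Apoe-/-Il27ra-/- against Apoe-/-Il27ra+/- gave 0.29 for Tnfrsf1a (SE 0.15, adjusted p = 1). With PBS the Apoe-/- library had 79.9 CPM, the heterozygous libraries 68.5, 70.7 and 58.6 CPM, and the knockout libraries 66.9, 67.7 and 72.0 CPM, so the PBS Apoe-/- library was not low. The Ang II Apoe-/- libraries are also those with 369 and 339 CPM of intestinal epithelial markers, so genotype and these markers cannot be told apart in this difference. The PBS Apoe-/- library, with 79.9 CPM of Tnfrsf1a, had 259 CPM of these markers. The part of such RNA in the difference was not tested.

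The Tnfrsf1a difference between knockout and Apoe-/- had 15 of 17 alternatives past the threshold, with log2 values from 0.97 to 1.24. Without the PBS Apoe-/- library and the replicates 2 of PBS and Ang II Apoe-/-Il27ra-/-, but with both Ang II Apoe-/- libraries kept, it was 0.97 (adjusted p = 0.00867). It missed the threshold among libraries under 4000000 counts (1.24, adjusted p = 0.103) and with only the compared groups in the model (1.05, adjusted p = 0.134), and the adjusted p over all alternatives ran from 8.59e-05 to 0.134. The test of any difference among the 6 LT-HSC groups gave an adjusted p of 0.118 for Tnfrsf1a.

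**Figure D3:**
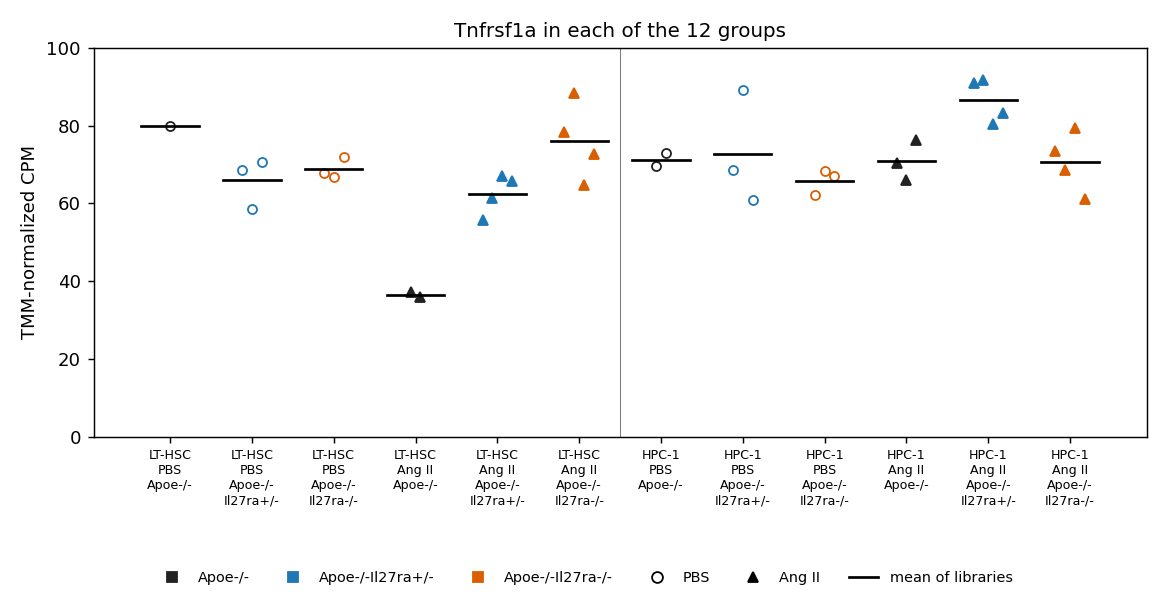
CPM of Tnfrsf1a in each library of the 12 groups, LT-HSC on the left and HPC-1 on the right, with black lines for group means. The LT-HSC Ang II Apoe-/- libraries, at 37.1 and 35.8 CPM, lay below every other library.

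In the remaining genotype comparisons edgeR and DESeq2 each called 0 of the 10. These were Apoe-/-Il27ra-/- against Apoe-/-Il27ra+/- in LT-HSC with Ang II (0.0% of genes) and with PBS (0.0%), in HPC-1 with Ang II (0.0%) and with PBS (0.0%). They also included, in HPC-1, Apoe-/-Il27ra-/- against Apoe-/- with Ang II (0.0%) and PBS (0.0152%), and Apoe-/-Il27ra+/- against Apoe-/- with Ang II (0.0%) and PBS (0.0%). In that order the members with an unadjusted p under 0.05 numbered 2, 1, 0, 0, 0, 2, 0 and 2. The 1 in LT-HSC with PBS was Il1r1, with 16.3, 66.3 and 23.9 CPM in the knockout, the highest again in replicate 2 with HPC-1 markers, and 12.7 to 15.7 CPM in the heterozygous. Over all genes such p-values numbered 426, 653, 375, 151, 661, 865, 975 and 631, edgeR called 2 genes in the knockout against Apoe-/- with PBS, and DESeq2 called 2, 1, 0, 0, 2, 25, 2 and 6.

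Those with such a p in HPC-1 with PBS included Il1r1 and Ifngr1, in opposite directions. For Il1r1, the Apoe-/- libraries had 40.3 and 40.5 CPM, the heterozygous ones 66.2, 79.4 and 40.9 CPM, and the knockout ones 132, 100 and 47.5 CPM. All knockout libraries were above the Apoe-/- libraries but overlapped with the heterozygous ones, and the log2 difference from Apoe-/- was 1.20 (95% confidence interval 0.39 to 2.02, adjusted p = 0.586). It passed the threshold only with no filter on low counts (1.23, adjusted p = 0.0314, where the range over 16 alternatives was 0.0314 to 1). Ifngr1 had 150 and 164 CPM in Apoe-/-, above the 97.2 to 123 CPM of the heterozygous and the 101 to 108 CPM of the knockout libraries. Its log2 difference from Apoe-/- was -0.58 in the knockout (95% confidence interval -1.03 to -0.13, adjusted p = 0.632) and -0.53 in the heterozygous (interval -0.98 to -0.09, adjusted p = 1). The other member in heterozygous against Apoe-/- was Nfkb1, with 178 to 210 CPM against 139 and 152 CPM (0.38, unadjusted p = 0.0491, adjusted p = 1). Tlr2 in LT-HSC with Ang II had 9.99, 17.3, 7.77 and 11.7 CPM in Apoe-/-Il27ra-/- and 4.78 to 7.54 CPM in Apoe-/-Il27ra+/-. These groups came as close as 7.77 and 7.54 CPM, and the highest value was in the myeloid-marked library. The log2 difference of 0.92 (interval 0.15 to 1.68) had an adjusted p of 1. Ifngr2 in the same comparison had 12.2, 33.7, 11.5 and 13.1 CPM against 3.99 to 10.5 CPM, again highest in the myeloid-marked library. Its log2 difference was 1.04 (interval 0.18 to 1.91, adjusted p = 1). The share of all genes whose groups did not overlap in these genotype comparisons was not counted.

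The tests of any difference among the 6 groups of a cell type called 0 of the 10 with edgeR, beside 0.299% of all genes for LT-HSC and 0.0% for HPC-1. In LT-HSC, 2 of the 10 had an unadjusted p under 0.05 (Tnfrsf1a and Myd88) and DESeq2 called 1, Tnfrsf1a. In HPC-1, 2 had such a p (Ifngr1 and Il1r1) and DESeq2 called 0. Over all genes, 2021 and 559 had an unadjusted p under 0.05 and DESeq2 called 611 and 58.

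Other genes of the same pathways, taken from 7 lists of 92 genes, moved in either direction between the cell types. Of the 86 that passed the filter, 20 (23.3%) were higher and 17 (19.8%) lower in LT-HSC, and 49 were not called. Over all genes the shares were the 17.9% and 18.4% given above. Of 11 toll-like receptors and co-receptors, 1 was higher, Tlr3, a receptor for double-stranded RNA (log2 difference 2.28), and 4 were lower. The lower ones were Ly86 (-4.87) and Cd180 (-0.76), whose proteins form a receptor complex on B cells, and the nucleic acid sensors Tlr7 (-3.94) and Tlr9 (-2.33), with a list median of 0.06. Tlr7 averaged 2.05 ± 3.87 CPM in LT-HSC and 11.7 ± 8.30 CPM in HPC-1 (SD, n = 17 and 19).

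Among 14 adaptors and kinases of the toll-like and interleukin-1 receptors, 2 were higher and 2 lower, with a median of -0.09. Irak3, an inhibitory member of the kinase family, was 1.25 higher (115 ± 30.6 against 46.9 ± 9.77 CPM, SD), and the ubiquitin ligase gene Peli1 was 0.59 higher. Ticam2, an adaptor of Tlr4, differed by -1.79 and the kinase gene Map3k7 by -0.28. Of 7 receptors of the interleukin-1 family, Il1rap, the partner chain of Il1r1, was 0.45 higher and the inhibitory receptor gene Sigirr 0.50 higher. Il1rl1, the interleukin-33 receptor, differed by -2.56 and Il18rap by -0.98, which gives 2 higher and 2 lower with a median of -0.44. The partner chain Il1rap thus differed in the opposite direction to Il1r1.

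Of 14 genes of tumor necrosis factor receptor signalling, 13 were tested (Cd40 was not), with 2 higher, 3 lower and a median of 0.06. Traf1, itself a target of NF-kB, was 3.82 higher, with 12.5 ± 5.18 CPM in LT-HSC and 1.19 ± 1.63 CPM in HPC-1 (SD), and Birc2 was 0.27 higher. Birc3 (-0.44), Ltbr (-0.35) and Ripk1 (-0.20) were lower. Of 12 genes of interferon receptor signalling, 5 were higher and 2 lower, with a median of 0.27. The higher ones included the kinase genes Jak2 (0.65) and Jak1 (0.29) and the transcription factor gene Stat2 (0.38). The type I interferon receptor chain Ifnar2 (-1.05) and the phosphatase gene Ptpn6 (-0.32) were lower. Ifnar2, Ifngr1 and Ifngr2 were thus lower in LT-HSC, while Jak1 and Jak2, which act below the interferon gamma receptor, were higher.

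Among 12 genes of the IKK complex, NF-kB subunits and inhibitors, 3 were higher and 2 lower, with a median of -0.02. Relb (1.56) and Nfkb2 (0.67), the subunits of the non-canonical NF-kB pathway, and Nfkbiz (1.23), a nuclear IkB protein, were higher. Rel (-1.23), the c-Rel subunit, and Nfkbid (-0.67) were lower. Of 22 NF-kB feedback and target genes, 17 were tested (Il1a, Il6, Cxcl1, Ccl2 and Ptgs2 were not), with 5 higher, 2 lower and a median of 0.23. Bcl2l1, which encodes the survival protein Bcl-xL (1.22), Tnfaip3, which encodes the feedback inhibitor A20 (0.74), Tnfaip2 (0.73), Tnip2 (0.51) and Icam1 were higher. Tnf (-1.94) and Ccl3 (-2.48) were lower, at mean levels under 3 CPM in both cell types.

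In the comparisons of agent or genotype, 1 of the 92 list genes was called, Il1rl2, which encodes the interleukin-36 receptor. It was called in LT-HSC with Ang II, in the knockout and in the heterozygous mice against Apoe-/-, where 1.69% and 0.831% of all genes were called. Among LT-HSC libraries with Ang II, both with intact Il27ra had 0 counts, the heterozygous ones 3.30, 6.74, 4.40 and 3.32 CPM, and the knockout ones 3.70, 5.18, 4.50 and 2.62 CPM. It was also at 0 in the PBS Apoe-/- LT-HSC library, with 2.85 to 5.14 CPM in the other PBS LT-HSC libraries. The 3 LT-HSC libraries at 0 were those with intact Il27ra and also those with 259, 369 and 339 CPM of intestinal epithelial markers, so genotype and these markers cannot be told apart here. Taking the floor of 3 counts per library in Apoe-/-, a mean of 1.47 CPM, heterozygous libraries with Ang II had an at least 3.02-fold higher mean (adjusted p = 0.0251), and knockout libraries an at least 2.72-fold higher one (adjusted p = 0.0207). In HPC-1 the PBS Apoe-/- libraries had 2 and 1 counts, and the other PBS libraries 1.83 to 6.18 CPM. With Ang II, replicates 1 and 2 of HPC-1 Apoe-/- had 3.89 and 6.02 CPM, and replicate 3, with 255 CPM of intestinal epithelial markers, had 0. The heterozygous libraries there had 2.27, 1.37, 0 and 1.94 CPM, below those replicates 1 and 2, and the knockout ones 5.48, 3.13, 2.90 and 2.95 CPM, so the order seen in LT-HSC did not recur in HPC-1 with Ang II.

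Patterns were the 12 group means of log2 CPM, taken around each gene's own mean. Each gene's nearest genes were those with the smallest root mean square difference in pattern. They were Arhgap12 (0.17) and Zbtb20 (0.18) for Nfkbia, Ing4 (0.08) and Elf4 (0.09) for Nfkb1, Taldo1 (0.09) and Srp68 (0.11) for Ifngr1, and Mical1 (0.22) and Phgdh (0.23) for Ifngr2. For Il1r1 they were Apcdd1 (0.25) and Itgb5 (0.26), for Tnfrsf1a Sra1 (0.12) and Tmem115 (0.13), and for Tnfrsf1b Tomm34 (0.07) and Selenon (0.11). For Tlr4 they were Pdk2 (0.25) and Tle6 (0.26), for Tlr2 Tpd52 (0.18) and Psap (0.19), and for Myd88 Trim12c (0.16) and Anks3 (0.18). None of the 10 was among another's nearest genes. The members' own root mean square spread around their mean ran from 0.177 for Nfkb1 to 0.855 for Il1r1. A small difference for a gene that varied little is therefore not a closer match than a larger one for Il1r1.

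Since Nfkbia and Ifngr2 moved in opposite directions between the cell types, their promoters are shown. RefSeq promoters of build GRCm38.p6 were found for 8 of the 10 genes, all but Nfkb1 and Tlr4, and the 250 bases before the start were searched on both strands for the kappaB consensus of NF-kB. It was found in 4 of the 8, Nfkbia, Ifngr2, Tlr2 and the second of the Il1r1 promoters, and in 7.25% of all 32851 promoters, or 8.23% of the 27025 genes with one. A match is a description of letters and not a bound site. The Nfkbia window is chr12:55492648-55492897, minus strand, with its match starting 29 bases before the start, and the Ifngr2 window is chr16:91546809-91547058, plus strand, with its match starting 75 bases before the start. Capitals mark the match, which lies on the reverse strand in both windows.
Nfkbia: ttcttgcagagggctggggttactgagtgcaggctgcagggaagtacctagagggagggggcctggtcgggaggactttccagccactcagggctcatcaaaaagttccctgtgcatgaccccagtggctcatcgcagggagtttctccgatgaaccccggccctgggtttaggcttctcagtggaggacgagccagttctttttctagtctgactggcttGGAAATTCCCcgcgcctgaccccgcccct
Ifngr2: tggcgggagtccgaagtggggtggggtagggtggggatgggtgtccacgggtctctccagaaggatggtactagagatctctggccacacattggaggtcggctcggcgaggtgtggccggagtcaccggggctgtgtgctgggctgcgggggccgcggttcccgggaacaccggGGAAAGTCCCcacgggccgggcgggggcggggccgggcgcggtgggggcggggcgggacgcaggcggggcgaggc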

How the data were processed

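RNA was measured in 36 libraries of sorted LT-HSC and HPC-1. The deposited unit is expected counts per Ensembl gene, made by the authors with RSEM after alignment to mm10; the table was not normalized and holds whole numbers. Symbols were found for 37570 of 38887 identifiers, holding 99.6% of counts. No library was left out of the models.

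Genes passing filterByExpr were fitted with edgeR 4.0.16 (R 4.3.3) by robust quasi-likelihood with TMM normalization and 1 term per group: 18013 genes over both cell types, 16365 in LT-HSC and 13199 in HPC-1. Adjusted p-values are Benjamini-Hochberg over all genes of a model, with 0.05 as threshold. The code was tested on simulated data. Library totals and the floor of 3 counts set the precision, for counting error only.

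Alternatives were DESeq2 1.42.0, other normalizations and filters, a covariate, a block, subsets of libraries and leaving out each library. Levels per kilobase used the principal transcript.

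The members and lists were chosen with earlier results of these data known. Named genes were all members, up to 4 genes per list and direction with the smallest adjusted p between cell types, list genes called elsewhere, the gate genes and Il27ra, the most abundant marker of each list, and the 2 genes nearest each member; Icam1 was named after its values were seen, as were the genes at 0.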

Additional observations from a re-analysis of the deposited data

Results flagged for a closer look

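In 40 groups of values (10 genes in 4 groups of 4 libraries), 4 had a library far from the others by the ratio of its gap to the whole range, and chance gives about 1 in 20 groups. In LT-HSC Ang II Apoe-/-Il27ra-/-, replicate 2 had 33.7 CPM of Ifngr2 where the others had 11.5 to 13.1 CPM (ratio 0.927), and the library also had 8903 CPM of mature myeloid markers, whose part in this value was not tested. The same replicate had 23.3 CPM of Tlr4 where the others had 22.2 to 22.3 CPM (ratio 0.896). That value rests on 54 counts and the ratio on the closeness of the other three, so it shows no distinct level. In HPC-1 Ang II Apoe-/-Il27ra+/-, replicate 3 had 53.0 CPM of Ifngr2 and the others 37.0 to 38.0 CPM (ratio 0.938). In HPC-1 Ang II Apoe-/-Il27ra-/-, replicate 2 had 33.4 CPM of Tnfrsf1b and the others 56.2 to 60.9 CPM (ratio 0.832).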

How the results depend on the processing

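The 7 genes called between cell types numbered 5 to 7 under 47 alternatives. Of these alternatives, 33 left out 1 library of the compared groups each, and they gave 6 to 7. Il1r1, Ifngr1, Ifngr2 and Nfkbia passed the threshold in all 47, Tlr4 and Tnfrsf1a in 45 and Myd88 in 41, and no direction turned. Within single combinations of agent and genotype the counts ran from 1 to 4 (PBS Apoe-/-Il27ra+/-), 0 to 2 (PBS Apoe-/-Il27ra-/-), 1 to 3 (Ang II Apoe-/-), 3 to 5 (Ang II Apoe-/-Il27ra+/-) and 2 to 5 (Ang II Apoe-/-Il27ra-/-).

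In LT-HSC with Ang II, Apoe-/-Il27ra+/- against Apoe-/- gave 1 called gene, Tnfrsf1a, with upper-quartile normalization, with a mean of at least 10 counts, without 3 libraries (the PBS Apoe-/- one and the replicates 2 of PBS and Ang II Apoe-/-Il27ra-/-) and with DESeq2, against 0 otherwise. There Apoe-/-Il27ra-/- against Apoe-/- gave 0 among libraries under 4000000 counts and with the compared groups only, against 1 otherwise. With no filter on low counts, Apoe-/-Il27ra-/- against Apoe-/- in HPC-1 with PBS and the test among the 6 HPC-1 groups gave 1 each, Il1r1, against 0. DESeq2 gave 1, Tnfrsf1a, in the test among the 6 LT-HSC groups, against 0. The causes were not tested. The other comparisons of agent or genotype gave 0 under every alternative run.

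Leaving out each library gave 1 to 1 called genes for Apoe-/-Il27ra-/- against Apoe-/- in LT-HSC with Ang II, and 0 to 0 in every other comparison of agent or genotype; where 1 library of a group remained, it was assumed to vary like the other groups. In the model of both cell types these fits kept the genes and dispersion trend of all libraries. For each comparison, only libraries of its own groups were left out.

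With replicate number as a block, 7 genes were called between cell types, 1 in Apoe-/-Il27ra-/- against Apoe-/- in LT-HSC with Ang II, and 0 in the other comparisons of agent or genotype. The lowest median counts in LT-HSC were 28 for Tlr2, 41 for Ifngr2, 56 for Il1r1 and 61 for Tlr4. Counting error relative to level is therefore largest for these genes there.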
